A study of Mus musculus with 7 samples.

Results

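The transcripts of 10 genes that build, regulate or recycle actin filaments were followed through meiotic maturation of the mouse oocyte: the formin Fmn2, its partners Spire1 and Spire2, the Arp2/3 complex subunits Actr2, Actr3, Arpc2 and Arpc3, the GTPase Cdc42, the filament-severing protein Cfl1 (cofilin) and the monomer-binding protein Pfn1 (profilin). They are named by symbol, no measured value enters that rule, the list was drawn up with earlier results of these data known, and each gene was listed once among the 25912 entries of the deposited tables. All 10 passed the filter on low values described below.

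Actin filaments move the meiotic spindle from the centre of the oocyte to its cortex, which allows the small polar body to be cut off from the large egg. Formin-2 and the Spire proteins nucleate unbranched filaments through the cytoplasm, while the Arp2/3 complex nucleates branched filaments at the cortex, where Cdc42 is among its upstream regulators. Profilin feeds actin monomers to growing ends, and cofilin severs old filaments and returns their monomers. A maturing oocyte makes almost no new RNA and degrades a large part of its stored maternal transcripts.

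Smart-seq2 libraries, each made from 10 oocytes of C57BL/6 mice, covered 3 groups. Fully grown oocytes arrested at the germinal vesicle stage (GV) gave 2 libraries, which the labels list as control without treatment, whereas the study's methods state that control GV and MII oocytes both received the solvent dimethylsulfoxide (DMSO). Oocytes at metaphase II with DMSO (MII) gave 3 libraries, and oocytes at metaphase II with BYBX (MII + BYBX), a small-molecule ligand that stabilises RNA G-quadruplexes (rG4s, stacked structures of guanine-rich RNA), gave 2. In the study, polar body emission fell as the BYBX concentration rose. The small proportion of treated oocytes that reached metaphase II had abnormal spindles and misaligned chromosomes. Whether such differences in state are present in these pools was not assessed here. All oocytes came from 4-week-old, hormone-primed (PMSG) females and were collected at the GV stage before culture. Neither the labels nor the methods for these libraries name the dose of BYBX, and no label says whether libraries of a group came from separate mice or cultures, so the p-values measure the spread between these samples, which may be technical.

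Values are FPKM (fragments per kilobase of transcript, normalised to the mapped fragments of the library) that the authors had scaled to a spike-in of synthetic RNA, so a level is relative to a fixed amount of added RNA. The summed FPKM of a library was 402114 to 489569 in GV, 109732 to 127254 in MII and 201482 to 246710 in MII + BYBX, and read depth is unknown. The 9 oocyte markers, among them the zona pellucida genes, were all present, with summed levels of 11260 to 13580 FPKM in GV, 2428 to 3135 in MII and 5721 to 6895 in MII + BYBX. Of 13 granulosa and cumulus cell markers, 12 were over 0 in some library, 3 reached a mean of 1 FPKM and Ptx3 was at 0. Their sum was 10.9 to 19.8 FPKM in GV, 2.48 to 2.77 in MII and 4.46 to 5.05 in MII + BYBX, and its part in the results below was not tested. The 6 blood markers summed to at most 2.01 FPKM, with Ptprc at 0. By the methods each pool held 10 oocytes, and whether recovery of cells or RNA differed between pools was not measured here. Priming was with oligo-dT, so levels are those of RNA captured through its poly(A) tail, and tail length was not measured.

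In MII oocytes 8 of the 10 genes were lower than in GV oocytes (limma, Benjamini-Hochberg adjusted p under 0.05 over the 9202 entries with a mean of the 3 group means of at least 1 FPKM), and none was higher; with each library rescaled to a common sum of FPKM, 4 were lower and 4 higher. Over all 9202 entries 88.3% were called lower and 0.272% higher, so a fall was the general rule. The sizes of the falls were far apart: Spire2, Pfn1, Cfl1, Actr3, Arpc3 and Cdc42 fell by more than the median entry, whose log2 change was -1.83, while Spire1 and Arpc2 fell by less and Actr2 and Fmn2 were not called. For Cdc42 this depended on the setting. With 0.1 in place of 1 added to FPKM it fell by less than the median (-2.35 beside -2.53), as with the common sum (-0.46 beside -0.56). With BYBX, 6 genes were higher than in control MII oocytes, against 65.2% of all entries, and none was lower, against 0.0326%. Log2 changes were computed from log2(FPKM + 1) and are too small for genes near 0.

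**Figure D1:**
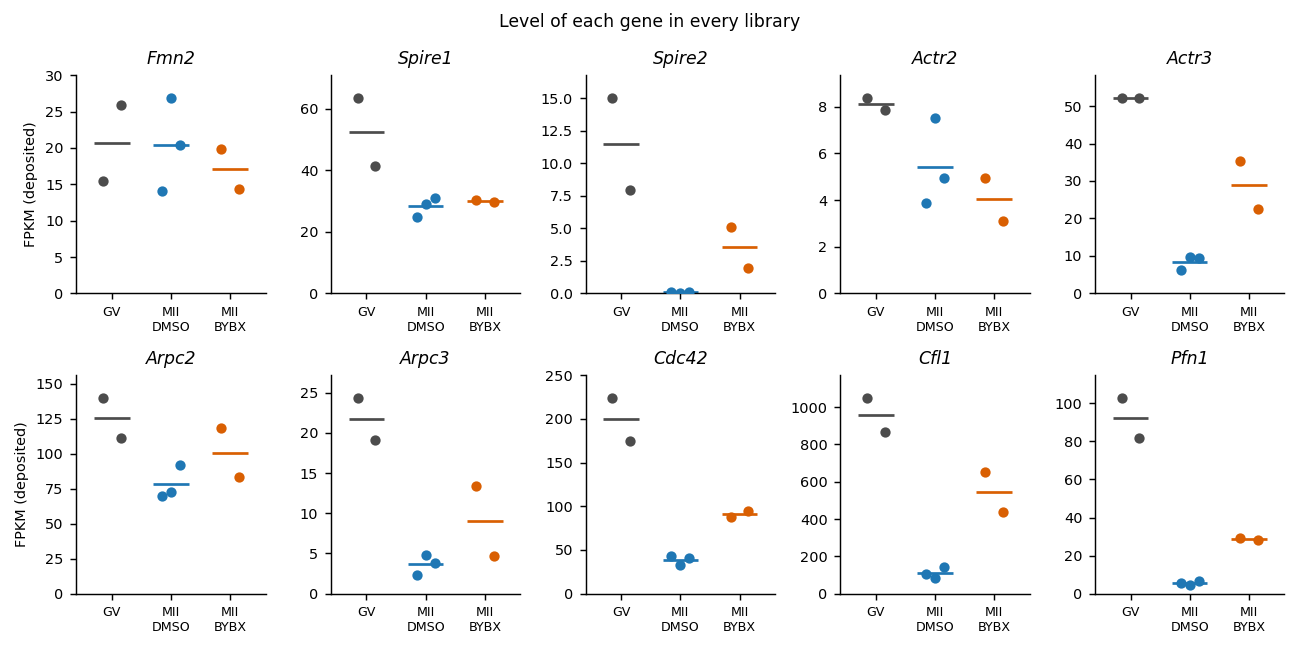
Deposited FPKM of the 10 genes, 1 panel per gene with its own linear axis from 0. Points are the 7 libraries and horizontal lines the group means. Pfn1 lay between 81.7 and 102.6 FPKM in GV, 4.56 and 6.79 in MII and 28.0 and 29.2 in MII + BYBX, whereas the Fmn2 libraries of the 3 groups lay over one another.

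Among the linear nucleators, Fmn2 (ENSMUSG00000028354, GRCm38 chromosome 1, 174501825 to 174822729, plus strand) encodes the formin that assembles the cytoplasmic actin mesh. It was listed at 15.5 and 25.9 FPKM in GV replicates 1 and 2, at 14.1, 26.9 and 20.4 FPKM in MII replicates 1 to 3, and at 19.9 and 14.3 FPKM in MII + BYBX replicates 1 and 2. The 3 groups overlapped, and the spread within GV and within MII was wider than the distance between their means of 20.7 ± 7.41 (SD, n = 2) and 20.4 ± 6.41 FPKM (n = 3). The log2 change from GV to MII was -0.02 (95% confidence interval -0.70 to 0.66, limma adjusted p = 0.96). Its change was -0.22 between MII + BYBX and MII (interval -0.90 to 0.46, limma adjusted p = 0.55) and -0.24 between MII + BYBX and GV (interval -0.98 to 0.51, limma adjusted p = 0.55). No change of Fmn2 was detectable in any comparison, within intervals of that width. Its rank among the tested entries of a library was at the 52.5 and 70.8 percentiles in GV, at 86.6 to 91.8 in MII and at 74.0 and 77.2 with BYBX. Among the log2 changes of all entries, that of Fmn2 stood at the 98.1 percentile from GV to MII and at the 0.7 percentile with BYBX. After the values of each library were rescaled to a common sum (called the same total FPKM below), Fmn2 was higher in MII than in GV (1.77, limma adjusted p = 0.00054) and lower in MII + BYBX than in MII (-1.08, limma adjusted p = 0.016).

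Spire1 (ENSMUSG00000024533, chromosome 18, 67488209 to 67610790, minus strand) encodes a WH2-domain nucleator that works with formin-2. Its level was 63.5 and 41.4 FPKM in the GV replicates, 24.9, 29.0 and 31.0 FPKM in the MII replicates, and 30.3 and 29.6 FPKM in the MII + BYBX replicates. Both GV libraries lay above all 5 MII libraries, and the BYBX-treated libraries lay inside the range of the control MII libraries. It was 1.85-fold lower in MII than in GV by mean FPKM (log2 change -0.84 ± 0.26 SE, limma adjusted p = 0.0083). Without GV replicate 1, the higher of the pair, the change was -0.54 (limma adjusted p = 0.087). Between MII + BYBX and MII the change was 0.08 (interval -0.48 to 0.65, limma adjusted p = 0.78), whereas Spire1 was lower with BYBX at the same total FPKM (-0.79, limma adjusted p = 0.0068). The direction of the fall depended on the spike-in scale, since at the same total FPKM Spire1 was higher in MII than in GV (1.0, limma adjusted p = 0.00096).

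Spire2 (ENSMUSG00000010154, chromosome 8, 123332713 to 123369515, plus strand), the paralogue of Spire1, behaved differently. It was present at 15.02 and 7.96 FPKM in GV, at 0.0884, 0.0465 and 0.0810 FPKM in MII, and at 5.14 and 1.97 FPKM in MII + BYBX. No library of one group reached the range of another: GV was highest, MII close to 0 and MII + BYBX in between. Mean FPKM was 159.7-fold lower in MII than in GV (log2 change -3.48 ± 0.30, limma adjusted p = 9.9e-08), and 49.4-fold higher in MII + BYBX than in MII (1.99 ± 0.30, limma adjusted p = 7e-05). Against GV the BYBX-treated libraries were 3.23-fold lower (-1.49 ± 0.33, limma adjusted p = 0.0015), and without GV replicate 1 the change was -1.07 and not called (limma adjusted p = 0.050). The fall to MII and the difference with BYBX kept their direction and calls at the same total FPKM, at -2.61 and 1.98. The gene Gm20388 overlaps Spire2 on the same strand, and reads of the pair cannot be told apart in these values.

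The FPKM ratio of both Spire genes within a library does not depend on how libraries were scaled to one another. The tested ratio, from log2(FPKM + 1), does depend on it where a gene is near 0, such as Spire2 in MII. Spire1 exceeded Spire2 4.23-fold and 5.19-fold in GV, 281-fold, 624-fold and 383-fold in MII, and 5.89-fold and 15.1-fold in MII + BYBX. All MII libraries stood far above the others. On the log2(FPKM + 1) scale the ratio was 2.13 ± 0.16 (SD, n = 2) in GV, 4.77 ± 0.17 (n = 3) in MII and 2.86 ± 0.72 (n = 2) in MII + BYBX. The difference was 2.64 between MII and GV and -1.91 between MII + BYBX and MII, each with an exact two-sided permutation p = 0.1, the smallest that 2 against 3 libraries allow, and an adjusted value of 0.25 over 15 ratio tests. The ratio of Fmn2 to Spire1 ranged from 0.243 to 0.627 in GV, from 0.566 to 0.927 in MII and from 0.483 to 0.657 in MII + BYBX, so its groups overlapped (exact permutation p = 0.2 for MII against GV).

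**Figure D2:**
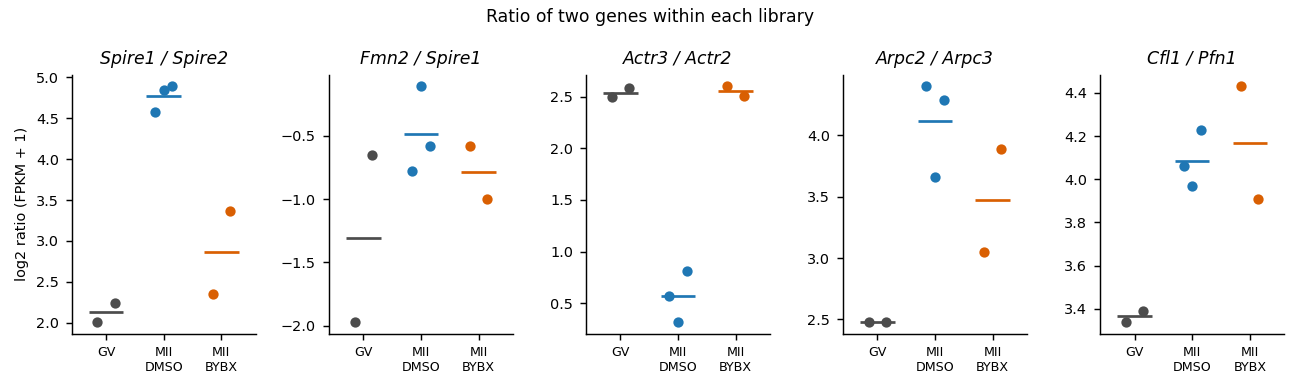
Log2 ratio of paired genes within each library, from log2(FPKM + 1). Points are the 7 libraries and horizontal lines the group means, and each panel has its own axis, which does not start at 0. The Actr3 to Actr2 ratio averaged 2.54 in GV, 0.57 in MII and 2.56 in MII + BYBX, and the Spire1 to Spire2 ratio 2.13, 4.77 and 2.86.

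The Arp2/3 complex joins the actin-related proteins Arp2 and Arp3, encoded by Actr2 and Actr3, to a scaffold of ARPC subunits. Actr2 (ENSMUSG00000020152, chromosome 11, 20062304 to 20112913, minus strand) was listed at 8.37 and 7.87 FPKM in GV, 3.86, 7.51 and 4.92 FPKM in MII, and 4.96 and 3.10 FPKM in MII + BYBX. Both GV libraries were above the rest, MII replicate 2 came close to them, and the MII and MII + BYBX libraries overlapped. From GV to MII the log2 change was -0.54 (interval -1.14 to 0.05, limma adjusted p = 0.078), which became a call without MII replicate 2 (-0.76, limma adjusted p = 0.022). The change with BYBX was -0.34 (interval -0.93 to 0.25, limma adjusted p = 0.28), at the 0.4 percentile of all entries. Actr2 at the same total FPKM was higher in MII than in GV (1.09, limma adjusted p = 0.0034) and lower in MII + BYBX than in MII (-1.14, limma adjusted p = 0.0047). The processed pseudogene Gm9729 matches the Actr2 transcript over 265 bases at 95.1% identity, and its effect on the level was not tested.

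Actr3 (ENSMUSG00000026341, chromosome 1, 125392905 to 125435727, minus strand) had another pattern. Its values were 52.1 and 52.1 FPKM in GV, 6.25, 9.63 and 9.39 FPKM in MII, and 35.2 and 22.4 FPKM in MII + BYBX. The GV libraries were alike, all MII libraries were far below them, and both BYBX-treated libraries stood between the other groups without overlap. Actr3 was 6.19-fold lower in MII than in GV (log2 change -2.52 ± 0.28, limma adjusted p = 1.1e-06) and 3.42-fold higher in MII + BYBX than in MII (1.65 ± 0.28, limma adjusted p = 0.00017). Both calls held at the same total FPKM, at -0.73 and 0.83, and with libraries centred on their median neither passed. Within a library Actr3 exceeded Actr2 by 6.23 and 6.61 times in GV, by 1.62, 1.28 and 1.91 times in MII, and by 7.10 and 7.23 times in MII + BYBX. The MII libraries stood apart from all 4 others. The log2 ratio changed by -1.97 from GV to MII and by 1.99 from MII to MII + BYBX (exact permutation p = 0.1 each, adjusted 0.25), and by 0.02 from GV to MII + BYBX (exact permutation p = 0.667, where 2 against 2 libraries cannot go below 0.333). The processed pseudogene Gm8822 matches the Actr3 transcript over 2348 bases at 98.8% identity, and uniquely mapped reads in that stretch could have been lost or split, so the level of Actr3 itself is uncertain.

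Arpc2 (ENSMUSG00000006304, chromosome 1, 74236084 to 74268209, plus strand) encodes a core scaffold subunit and was the most abundant of these 4 genes in every library. It was listed at 139.7 and 111.1 FPKM in GV, 69.8, 72.7 and 92.3 FPKM in MII, and 118.1 and 83.7 FPKM in MII + BYBX. GV lay above MII, and the BYBX-treated libraries overlapped both. The fall to MII was 1.60-fold (log2 change -0.67 ± 0.27, limma adjusted p = 0.028) and was not called without GV replicate 1 (-0.51, limma adjusted p = 0.17), MII replicate 1 (-0.60, 0.069) or MII replicate 2 (-0.63, 0.083). Its direction turned at the same total FPKM, to 1.19 (limma adjusted p = 0.0002). The change with BYBX was 0.35 (interval -0.22 to 0.92, limma adjusted p = 0.25), and -0.53 at the same total FPKM (limma adjusted p = 0.031). The processed pseudogene AC154544.1 matches the Arpc2 transcript over 510 bases at 96.1% identity, and its effect on the level was not tested.

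Arpc3 (ENSMUSG00000029465, chromosome 5, 122391878 to 122414184, plus strand), a small subunit of the complex, fell much further. Its level was 24.3 and 19.1 FPKM in GV, 2.35, 4.81 and 3.77 FPKM in MII, and 13.3 and 4.73 FPKM in MII + BYBX. The MII libraries were well below GV, and the BYBX-treated pair was split, with replicate 1 above all MII libraries and replicate 2 inside their range. Arpc3 was 5.95-fold lower in MII than in GV (log2 change -2.32 ± 0.36, limma adjusted p = 3e-05), a call that was lost at the same total FPKM (-0.66, limma adjusted p = 0.095). The rise with BYBX (1.0 ± 0.36, limma adjusted p = 0.024) rested on MII + BYBX replicate 1: without it the change was 0.34 (limma adjusted p = 0.43). It was also not called without either GV library or with only the compared groups in the fit (limma adjusted p = 0.065). The ratio of Arpc2 to Arpc3 was 5.75 and 5.82 in GV, 29.8, 15.1 and 24.5 in MII, and 8.84 and 17.7 in MII + BYBX. MII was above GV in every library, and MII + BYBX overlapped MII.

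Cdc42 (ENSMUSG00000006699, chromosome 4, 137319696 to 137357720, minus strand) encodes the GTPase that polarises the cortex. Its level was 223.5 and 175.2 FPKM in GV, 43.3, 32.7 and 41.2 FPKM in MII, and 87.6 and 94.4 FPKM in MII + BYBX. The groups did not overlap, and the BYBX-treated pair was tight. It was 5.10-fold lower in MII than in GV (log2 change -2.32 ± 0.25, limma adjusted p = 9.6e-07) and 2.33-fold higher in MII + BYBX than in MII (1.21 ± 0.25, limma adjusted p = 0.00093). Neither change passed at the same total FPKM (-0.46 and 0.33, limma adjusted p = 0.081 and 0.23), and with median centring the change with BYBX was -0.07. In each library Cdc42 kept about the same rank, from the 93.2 to the 96.6 percentile.

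Cfl1 (ENSMUSG00000056201, chromosome 19, 5490455 to 5495201, plus strand) encodes cofilin-1 and had the highest mean of the 10 genes in each group. It was listed at 1047 and 864.3 FPKM in GV, 105.5, 85.9 and 144.8 FPKM in MII, and 651.2 and 435.7 FPKM in MII + BYBX. No groups overlapped. The fall to MII was 8.53-fold (log2 change -3.11 ± 0.28, limma adjusted p = 1.5e-07), and MII + BYBX was 4.85-fold above MII (2.27 ± 0.28, limma adjusted p = 1.2e-05). Both calls held at the same total FPKM, at -1.23 and 1.38. The last part of Cfl1 shares 354 bases with Snx32 on the opposite strand, but Snx32 was listed at only 2.44 FPKM in GV, 0.00993 in MII and 0.955 in MII + BYBX, and the pseudogene Gm6180 matches Cfl1 over 498 bases at 98.8% identity.

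Pfn1 (ENSMUSG00000018293, chromosome 11, 70651850 to 70654644, minus strand) encodes profilin-1. Its level was 102.6 and 81.7 FPKM in GV, 5.40, 4.56 and 6.79 FPKM in MII, and 29.2 and 28.0 FPKM in MII + BYBX. The groups did not overlap, and the BYBX-treated libraries differed little from each other. Pfn1 was 16.5-fold lower in MII than in GV (log2 change -3.83 ± 0.25, limma adjusted p = 6.3e-09) and 5.12-fold higher in MII + BYBX than in MII (2.18 ± 0.25, limma adjusted p = 6.3e-06). Its changes at the same total FPKM were -2.07 and 1.40, both called. The ratio of Cfl1 to Pfn1 was 10.2 and 10.6 in GV, 19.6, 18.9 and 21.3 in MII, and 22.3 and 15.5 in MII + BYBX, so it was higher in all MII libraries than in GV, and the BYBX-treated pair lay on both sides of the control MII libraries.

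**Figure D3:**
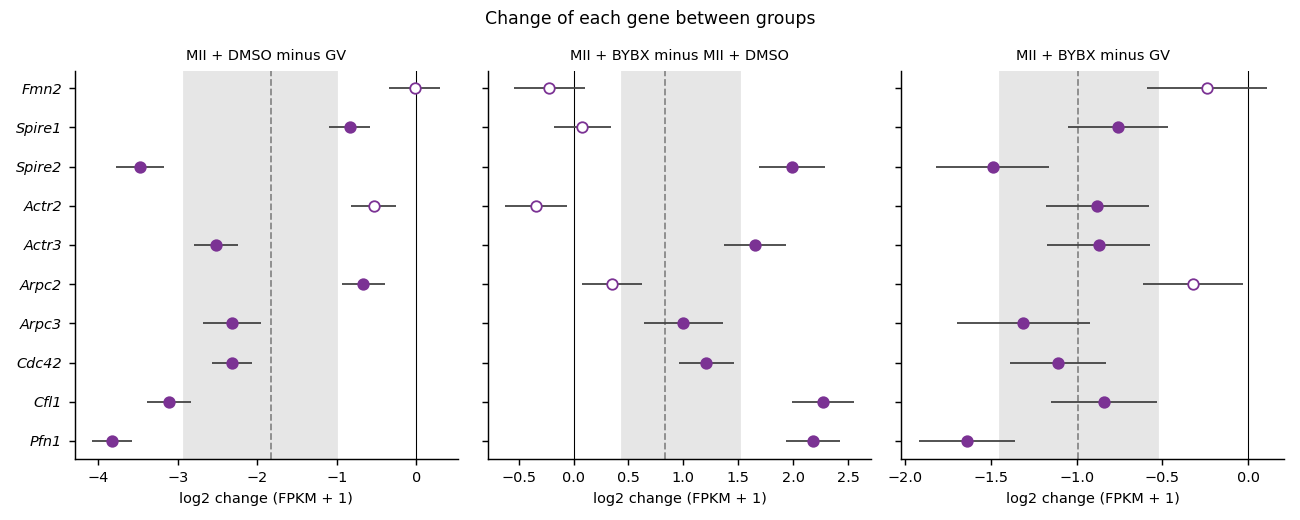
Log2 change of each gene in the 3 comparisons, on the log2(FPKM + 1) scale, with bars of 1 SE from limma. Filled circles passed an adjusted p of 0.05, the dashed line is the median of all 9202 tested entries (-1.83, 0.84 and -0.99 from left to right), and the grey band covers their middle quartiles. Fmn2, Spire1, Actr2 and Arpc2 lay closer to 0 than the median entry in the first 2 panels.

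Compared with GV directly, MII + BYBX oocytes had 8 of the 10 genes lower, against 69.2% of all entries, and none higher, against 0.315%. Fmn2 and Arpc2 were not called (for Arpc2 -0.32, interval -0.95 to 0.31, limma adjusted p = 0.33). On the log2(FPKM + 1) scale Pfn1 had the largest difference (-1.64 ± 0.28, limma adjusted p = 0.00023) and Spire2 came next, although by mean FPKM the 3.23-fold fall of Spire2 and the 3.22-fold fall of Pfn1 were alike. Further down were Arpc3 (-1.31 ± 0.39, limma adjusted p = 0.0089) and Cdc42 (-1.11 ± 0.28, limma adjusted p = 0.003). Actr2, Actr3, Cfl1 and Spire1 changed by -0.88, -0.87, -0.84 and -0.76 (limma adjusted p = 0.019, 0.022, 0.028 and 0.031). This count of 8 depended on single libraries: it was 2 without GV replicate 1, against 51.7% of all entries in that fit, 5 without GV replicate 2, against 70.0%, and 3 without MII + BYBX replicate 2, against 58.5%. Cdc42 and Pfn1 were called whichever library was left out. With a minimum of 2-fold the count was 4, against 49.2%. At the same total FPKM no gene was lower, against 13.3% of all entries, and Arpc2 was higher (0.66, limma adjusted p = 0.044), against 5.3%.

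On the spike-in scale the libraries of MII were below those of GV without overlap for 9 genes, all but Fmn2, against 92.5% of all entries, and those of MII + BYBX were above those of MII for 5 genes, against 79.0%. The libraries of MII + BYBX lay below those of GV for 8 genes, against 82.3%, and above them for none, against 0.848%. The genes parted into opposite directions at the same total FPKM. Spire2, Actr3, Cfl1 and Pfn1 were lower in MII than in GV, against 49.5% of all entries, and Fmn2, Spire1, Actr2 and Arpc2 were higher, against 23.3%. The same scale gave 4 genes higher with BYBX than in MII (Spire2, Actr3, Cfl1 and Pfn1), against 39.9%, and 4 lower (Fmn2, Spire1, Actr2 and Arpc2), against 8.22%. With libraries centred on their median, 3 genes were lower in MII, against 26.7%, and 4 higher, against 48.8%, and 3 were higher with BYBX, against 18.4%, and 4 lower, against 43.9%, since Actr3 was no longer called. This centring did not put the median tested entry at 0 but at 0.47 for MII against GV and at -0.44 for MII + BYBX against MII. The rescaling moved the median change of all entries from -1.83 to -0.56 for MII against GV and from 0.84 to 0.34 for MII + BYBX against MII. These comparisons share the MII libraries, so the opposite directions are not independent of each other.

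For a gene that fell, the part of the decrease that was absent with BYBX was given as the difference of MII + BYBX from MII divided by the difference of GV from MII, in FPKM. This share was 0.511 for Cfl1, 0.480 for Arpc2, 0.467 for Actr3, 0.324 for Cdc42, 0.305 for Spire2, 0.299 for Arpc3, 0.266 for Pfn1 and 0.068 for Spire1. Spire1 had the smallest share, at the 2.6 percentile of the 8127 entries that fell. Between the BYBX-treated replicates the share was close for Pfn1 (0.273 and 0.259) and Cdc42 (0.303 and 0.345) and further apart for Cfl1 (0.639 and 0.383), Actr3 (0.613 and 0.321), Spire2 (0.444 and 0.166), Arpc2 (0.845 and 0.116) and Arpc3 (0.538 and 0.060). The median over the 8 genes was 0.315, beside 0.288 over all entries that fell, and it was 0.491 with MII + BYBX replicate 1 alone and 0.213 with replicate 2 alone. For the 4 genes that also fell at the same total FPKM the median was 0.892 on that scale and 0.386 on the deposited scale. Their shares on that scale ran from 0.514 for Pfn1 to 1.211 for Cfl1, and the median over all entries was not computed there. No test was made, because numerator and denominator share the MII libraries.

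The order of the genes by level, which FPKM gives per length of transcript, changed between the groups. In GV it ran Cfl1 (955.9 ± 129.4 FPKM), Cdc42 (199.4 ± 34.1), Arpc2 (125.4 ± 20.2), Pfn1 (92.1 ± 14.8), Spire1 (52.4 ± 15.7), Actr3 (52.1 ± 0.05), Arpc3 (21.7 ± 3.69), Fmn2, Spire2 (11.5 ± 4.98) and Actr2 (8.12 ± 0.351; SD, n = 2). The neighbours Spire1 and Actr3, Arpc3 and Fmn2, and Spire2 and Actr2 overlapped in their libraries. In MII Arpc2 (78.3 ± 12.3 FPKM, n = 3) overlapped Cfl1 (112.1 ± 29.98) at the top, Cdc42 (39.1 ± 5.64) came next, Spire1 (28.3 ± 3.14) and Fmn2 overlapped, and Actr3, Pfn1, Actr2 and Arpc3 overlapped in turn between 8.42 and 3.64 FPKM. Spire2, at 0.0720 ± 0.0224 FPKM, was last and apart. With BYBX the order was Cfl1 (543.4 ± 152.4 FPKM, n = 2), then Arpc2 and Cdc42, then Spire1, Actr3 and Pfn1 between 29.95 and 28.6 FPKM, then Fmn2, and Arpc3, Actr2 and Spire2 overlapped at the end.

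As a share of the summed FPKM of the 10 genes, the linear nucleators Fmn2, Spire1 and Spire2 made up 5.56% and 5.43% in GV, 14.2%, 20.4% and 14.5% in MII, and 5.56% and 6.40% in MII + BYBX. The 4 Arp2/3 subunits made up 13.3% and 13.7% in GV, 29.9%, 34.6% and 31.1% in MII, and 17.3% and 15.9% in MII + BYBX. Both classes took a larger share in every MII library than in any other library, beside a Cfl1 share of 31.4% to 40.8% in MII, 61.9% and 62.3% in GV, and 65.5% and 60.7% in MII + BYBX. Fmn2 alone made up 0.913% and 1.87% in GV, 5.11% to 9.82% in MII, and 1.998% and 1.995% with BYBX.

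Predicted rG4 motifs were sought in the longest protein-coding transcript of each gene, because BYBX binds such structures. A motif had 4 runs of 3 or more G on the sense strand, joined by loops of 1 to 7 bases of any kind. It was found in Spire2, Actr2, Arpc2 and Arpc3, which is 4 of 10 genes, against 18.6% of the 8744 tested entries with a matched transcript. With loops of up to 12 bases, 6 of the 10 genes and 33.3% of the entries held one. The 4 motifs are shown to let the G runs, in capitals, be compared. They are read 5′ to 3′ from GENCODE vM21 transcripts on GRCm38 (mm10): Spire2 in the coding sequence at chr8:123332914-123332943 (plus strand), Actr2 in the 3′ untranslated region at chr11:20064262-20064284 (minus strand), Arpc2 in the 5′ untranslated region at chr1:74236523-74236543 (plus strand) and Arpc3 in the 3′ untranslated region at chr5:122406062-122406079 (plus strand).
Spire2: GGGctgccgcGGGctgcGGGGcgagccGGG
Actr2: GGGtGGGGGtggtaaGGGGtGGG
Arpc2: GGGGGctGGGcGGGGaccGGG
Arpc3: GGGaGGGtGGGtgtcGGG
Spire2 and Arpc3 were among the genes called higher with BYBX, as were 65.2% of all entries, and Actr2 and Arpc2 were not called. The call of Arpc3 rested on MII + BYBX replicate 1. Of the genes without a motif at loops of 1 to 7 bases, Actr3, Cdc42, Cfl1 and Pfn1 were called higher, and Fmn2 and Spire1 were not. A link of motifs to the changes was not tested. A match describes the letters only, and whether these stretches fold in the oocyte was not measured here.

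The libraries were primed with oligo-dT, so the ends of the transcripts were searched as well. Such priming needs a poly(A) tail, and the study describes polyadenylation of many maternal transcripts after meiosis resumes. Tail lengths were not measured here, and their part in the falls and rises of FPKM was not tested. A polyadenylation signal (AATAAA or ATTAAA) lay in the last 50 bases of 9 of the 10 transcripts, all but Spire2, against 79.6% of the matched entries. A cytoplasmic polyadenylation element (TTTTAT or TTTTAAT), a motif known for controlling poly(A) length and translation in maturing oocytes, lay in the last 100 bases of Spire1 and Actr2, against 20.2% of the entries. The ends of Fmn2 (chr1:174822700-174822729, plus strand), Actr2 (chr11:20062316-20062345, minus strand) and Pfn1 (chr11:70651853-70651882, minus strand) are shown as a gene with no detectable change, one that holds both motifs and one with a large fall, with the motifs in capitals.
Fmn2: ttatatgaaAATAAAatgaatAATAAAata
Actr2: cttctTTTTAATtaagaaAATAAAtaagat
Pfn1: tttttttttctgAATAAAaaaagattctac
On the spike-in scale Spire1 and Actr2 were among the 4 genes with the smallest changes from GV to MII and with BYBX, and the others of those 4, Fmn2 and Arpc2, held no such element in that window. At the same total FPKM Spire1 and Actr2 changed by 1.0 and 1.09 to MII, more than Cdc42 (-0.46) and Arpc3 (-0.66). With BYBX they changed by -0.79 and -1.14 there, also more than Cdc42 (0.33) and Arpc3 (0.27). A link of the element to these changes was not tested.

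Of 91 further genes of actin nucleation and turnover, 69 passed the filter on low values. From GV to MII 58 of them fell and none rose, against 88.3% and 0.272% of all entries, with a median log2 change of -1.58. Under the same total FPKM 24 of the 69 fell and 16 rose, against 49.5% and 23.3% of all entries. With median centring 18 fell and 42 rose, against 26.7% and 48.8%. With BYBX 42 of the 69 were higher than in MII and none lower, against 65.2% and 0.0326% of all entries, with a median of 0.73 beside 0.84 over all entries. Under the same total FPKM 22 were higher and 2 lower, against 39.9% and 8.22%, and with median centring 14 were higher and 33 lower, against 18.4% and 43.9%. Against GV 45 were lower with BYBX and none higher, beside 69.2% and 0.315% of all entries. At the same total FPKM these were 7 and 5, beside 13.3% and 5.3%.

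The other 6 subunit genes of the Arp2/3 complex, including alternative forms, all fell from GV to MII, against 88.3% of all entries. Their median log2 change was -2.79, and at the same total FPKM 4 were lower and 1 higher, against 49.5% and 23.3%. With BYBX 5 of them were higher, against 65.2%, with a median of 1.5. At the same total FPKM 4 were higher with BYBX, against 39.9%. Median centring gave 2 higher and 2 lower with BYBX, against 18.4% and 43.9%. Arpc1a and Arpc1b encode alternative forms of the same subunit. Arpc1a was listed at 47.0 and 36.1 FPKM in GV, 0.298, 0.599 and 0.645 FPKM in MII, and 15.6 and 18.6 FPKM in MII + BYBX. The groups did not overlap, and the log2 change was -4.81 ± 0.24 to MII (limma adjusted p = 6.9e-10) and 3.58 ± 0.24 with BYBX (limma adjusted p = 7.7e-08). Arpc1b, at 108.3 and 84.0 FPKM in GV, 54.5, 53.1 and 70.1 in MII and 101.3 and 69.4 in MII + BYBX, changed far less. Its log2 change to MII was -0.69 ± 0.27 (limma adjusted p = 0.028), turned to higher at the same total FPKM, and its change with BYBX was 0.51 ± 0.27 (limma adjusted p = 0.11), turned to lower with median centring. In GV the most abundant subunit genes were Arpc5l (139.2 ± 3.87 FPKM) and Arpc2, which overlapped, and Actr2 was the lowest but for Actr3b, a paralogue of Actr3 at 2.71 FPKM. In MII Arpc2 and Arpc1b led and overlapped, Arpc5l was at 14.1 ± 1.90 FPKM, Arpc5 at 1.495 ± 0.462 and Arpc1a at 0.514 ± 0.189, which overlapped Actr3b (0.352) at the end, so that the subunit messages spanned a wider range than in GV.

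**Figure D4:**
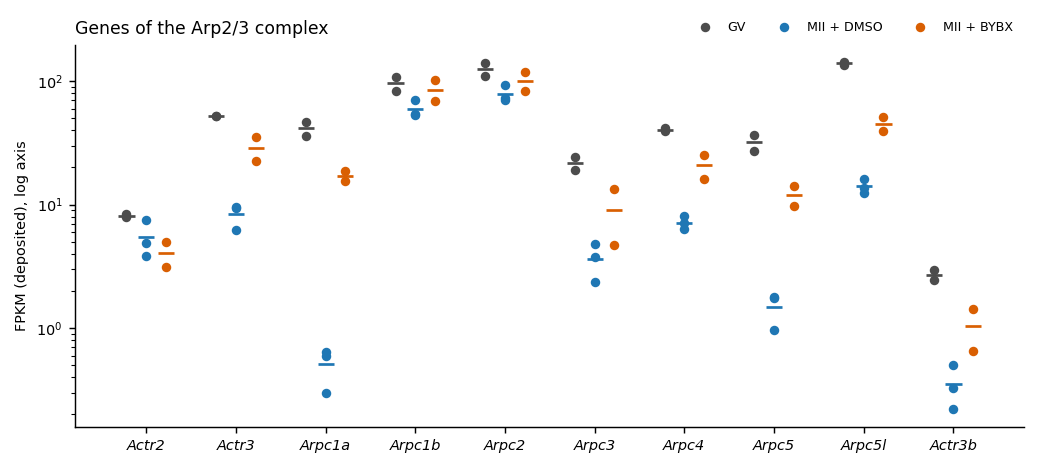
Deposited FPKM, on a log axis, of the 4 Arp2/3 subunit genes described first and of 6 further ones. Points are libraries and short lines group means, with GV in grey, MII with DMSO in blue and MII with BYBX in orange. Mean levels ran from 2.71 to 139.2 FPKM in GV, from 0.352 to 78.3 in MII and from 1.05 to 100.9 in MII + BYBX.

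The activators of Arp2/3, which include N-WASP (Wasl) and the WAVE complex, were lower in part: 6 of 11 tested genes fell in MII, with a median log2 change of -0.75, and 2 of 11 were higher with BYBX, with a median of 0.33, against 88.3% and 65.2% of all entries. In MII 1 was lower and 7 were higher at the same total FPKM, against 49.5% and 23.3% of all entries. With BYBX none was higher and 1 was lower on that scale, against 39.9% and 8.22%, and with median centring 8 were lower, against 43.9%. Wasl, the most abundant of them, was at 83.3 and 78.8 FPKM in GV, 65.5 to 97.3 in MII, and 123.6 and 70.5 in MII + BYBX. Its groups overlapped, and its log2 change to MII was -0.04 ± 0.29 (limma adjusted p = 0.90), but at the same total FPKM it was higher in MII (1.83, limma adjusted p = 4e-05) and lower with BYBX (-0.65, limma adjusted p = 0.03). The 3 tested inhibitors and debranching factors were all lower in MII, against 88.3% of all entries. At the same total FPKM 2 were lower and none higher, against 49.5% and 23.3%. With median centring 2 were lower and 1 higher, against 26.7% and 48.8%. Of the 3 genes the coronins Coro1b and Coro1c were higher with BYBX, against 65.2% of all entries, and also at the same total FPKM, against 39.9%. Coro1c was at 19.6 and 13.2 FPKM in GV, 0.222 to 0.295 in MII, and 3.15 and 3.47 in MII + BYBX, and its difference between MII + BYBX and GV was -1.99 ± 0.24 (limma adjusted p = 6.7e-05). Coro1b fell by 3.36 ± 0.23 on the log2 scale to MII (limma adjusted p = 1e-08) and was 1.80 ± 0.23 higher with BYBX (limma adjusted p = 1.6e-05).

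Of the other formins 6 of 12 passed the filter, and 4 of these were lower in MII (median -0.90), against 88.3% of all entries. At the same total FPKM 1 was lower and 3 were higher, against 49.5% and 23.3%. Only Fmnl3 was higher with BYBX, against 65.2% of all entries. It was at 56.6 and 53.5 FPKM in GV, 1.31, 1.57 and 2.11 in MII, and 27.4 and 13.4 in MII + BYBX, without overlap (log2 changes -4.41 ± 0.29 and 2.93 ± 0.29, limma adjusted p = 6.7e-09 and 1.7e-06).

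Monomer and filament turnover factors were lower in MII for 16 of 18 tested genes (median -2.12), against 88.3% of all entries, and higher with BYBX for 16 (median 1.09), against 65.2%. At the same total FPKM 9 were lower and 1 higher in MII, against 49.5% and 23.3%, and 9 were higher with BYBX, against 39.9%. Tmsb10, a thymosin that sequesters actin monomers, showed the largest log2(FPKM + 1) change of the 69 genes in both comparisons, while by mean FPKM the fall of Dstn to MII was larger (101.9-fold against 82.0-fold). It was at 308.7 and 340.1 FPKM in GV, 1.67, 2.81 and 7.40 in MII, and 197.5 and 88.3 in MII + BYBX, without overlap (log2 changes -6.21 ± 0.43 and 4.92 ± 0.43, limma adjusted p = 1e-08 and 5.2e-07). Dstn, which encodes the cofilin relative destrin, was at 81.6 and 52.6 FPKM in GV, 0.373 to 1.03 in MII, and 9.56 and 16.1 in MII + BYBX. Its difference between MII + BYBX and GV, -2.31 ± 0.32 (limma adjusted p = 8.2e-05), was the largest of that comparison by the same rule. The actins, non-muscle myosins and vesicle motors were lower in MII for 10 of 11 genes (median -1.59), against 88.3% of all entries, and higher with BYBX for 8 (median 0.82), against 65.2%. At the same total FPKM 3 of them were lower and 1 higher in MII, against 49.5% and 23.3%, and 2 were higher with BYBX, against 39.9%. Their most abundant gene, the myosin light chain Myl6, was at 86.2 and 100.8 FPKM in GV, 39.4 to 91.2 in MII, and 156.1 and 77.8 in MII + BYBX, and was not called (for MII -0.45 ± 0.38, limma adjusted p = 0.26), but at the same total FPKM it was higher than in GV in MII (1.41, limma adjusted p = 0.0038) and in MII + BYBX (1.22, limma adjusted p = 0.048). With median centring the genes higher in MII numbered 11 of the 11 activators, 5 of the 6 formins, 6 of the 18 turnover factors and 7 of these 11, against 48.8% of all entries. Those lower with BYBX numbered 8, 5, 5 and 5, against 43.9%.

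**Figure D5:**
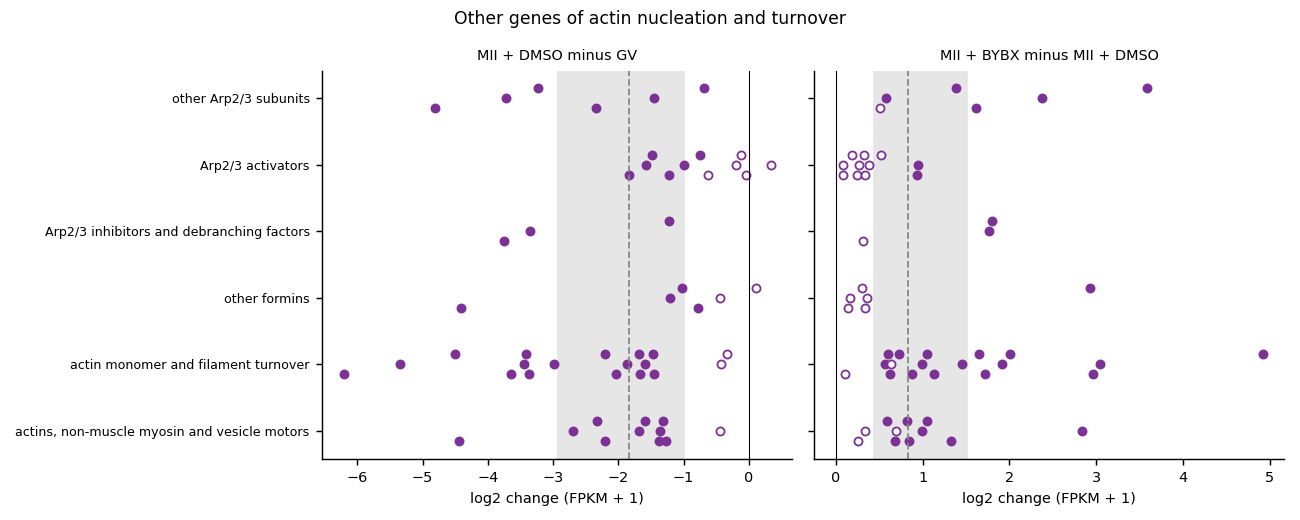
Log2 change, on the log2(FPKM + 1) scale, of 55 tested genes of 6 other actin gene lists, for MII against GV (left) and MII + BYBX against MII (right). Each circle is a gene, filled where its limma adjusted p was under 0.05, the dashed line is the median of all 9202 tested entries (-1.83 and 0.84) and the grey band their middle quartiles. The leftmost and rightmost circle is Tmsb10, at -6.21 and 4.92.

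Likeness of pattern was measured for 4 genes as the root mean square difference of log2(FPKM + 1) over the 7 libraries, after the mean of each entry was taken out. The entries most like Fmn2 were Rmnd5a (0.155), Tapt1 (0.166) and Itprid2 (0.167). Those most like Actr3 were Wdr82 (0.056), Yipf2 (0.072) and Cnep1r1 (0.092), and those most like Cdc42 were Zscan21 (0.068), Sec61a1 (0.082) and Wls (0.088). For Cfl1 they were Dctpp1 (0.109), Leo1 (0.150) and Pparg (0.152). Rmnd5a, at 11.7 ± 1.64 FPKM in GV, 11.8 ± 4.89 in MII and 10.8 ± 3.25 in MII + BYBX, had like means in the 3 groups. Wdr82 had means of 29.5 ± 0.118, 4.84 ± 1.36 and 17.2 ± 6.16 FPKM in the same order. Among the 10 genes themselves the closest pair was Spire1 and Arpc2 (0.230), Actr2 and Actr3 were 0.990 apart, Spire1 and Spire2 1.20, and the most distant pair was Fmn2 and Pfn1 (1.68).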

How the data were processed

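Per the labels and the study's methods, polyadenylated RNA of 10 oocytes per sample was reverse transcribed with 100 pg of ERCC spike-in and sequenced as Smart-seq2 libraries. The authors trimmed reads with Trim Galore 0.6.7, aligned them to mm10 with HISAT2 2.2.1 and computed FPKM from uniquely mapped reads with Cufflinks 2.2.1 on UCSC gene models. The authors scaled the deposited FPKM values to the spike-in and equalised batches on their GV samples, so falls and rises depend on factors that the sources used here do not give. No label gives a batch. FPKM values keep no whole reads, so no counting interval could be given. Strand was not stated to be used in counting.

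Of 25912 entries, 4 with a missing value were left out. Comparisons used limma 3.58.1 (R 4.3.3) with an intensity trend in eBayes on log2(FPKM + 1) for the 9202 entries with a mean of the 3 group means of at least 1 FPKM, in 1 model of all 7 libraries with 4 residual degrees of freedom, and Benjamini-Hochberg adjustment over all tested entries at 0.05. Ratios within libraries were compared by exact two-sided permutation tests (scipy 1.17.1). The limma step was tested on simulated data. Gene positions and transcripts came from GENCODE vM21 on GRCm38, and 95.0% of tested entries matched a transcript by symbol. Near-identical genes were sought with BLAST 2.17.0 (at least 150 bases at 95% identity).

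The 10 genes and the lists were chosen with earlier results of these data known. Other actin genes were named where they had one of the 3 largest called changes in a comparison and direction, given 10 FPKM or more in either group mean and libraries that did not overlap, or the highest mean of their list; 1 list is counted in the totals only and not reported here. Like patterns were sought for Fmn2, Actr3, Cdc42 and Cfl1. Alternatives were a pseudocount of 0.1, a filter at 5 FPKM or none, the same total FPKM, median centring, a minimum of 2-fold, a block on the replicate number, a fit without the other group or without the trend, and leaving out each library. LACE-seq, Ribo-lite and protein data of the study were not analysed here.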

Additional observations from a re-analysis of the deposited data

How the results depend on the processing

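Rescaling to the same total FPKM and median centring had the largest effects. From GV to MII they gave 4 and 3 genes lower and 4 and 4 higher, in place of 8 and 0, and among the other actin genes 24 and 18 lower and 16 and 42 higher. Fmn2 moved to 1.77 and 2.29, Spire1 to 1.0 and 1.46, Actr2 to 1.09 and 1.76 and Arpc2 to 1.19 and 1.63. With BYBX against MII, 4 genes were lower under each, 3 were higher with centring, and the other actin genes gave 2 and 33 lower and 22 and 14 higher. Spire1 moved to -0.79 and -1.19 and Arpc2 to -0.53 and -0.93, and with centring Arpc3 to -0.28 and Cdc42 to -0.07. Against GV, 0 genes were lower with BYBX and 1 higher under each, with 7 and 6 other actin genes lower and 5 and 10 higher. Of all entries 13.3% and 13.6% were lower in that comparison and 5.3% and 15.2% higher. Fmn2 moved to 0.69 and 0.79, Spire1 to 0.21 and 0.27, Actr3 to 0.10 and 0.16, Arpc2 to 0.66 and 0.70, Cfl1 to 0.16 and 0.19, and Actr2, with centring, to 0.14. The median share absent with BYBX was 0.892 at the same total, over the 4 genes that then fell, which had 0.386 on the deposited scale. A filter at 5 FPKM, which tests fewer genes, left 38 other actin genes lower in MII, beside 4842 of the 5508 entries then tested. It left 28 lower in MII + BYBX against GV, beside 3779 of those entries. A minimum of 2-fold gave 4 genes and 29 other actin genes lower with BYBX against GV, beside 4529 of all 9202 entries. It gave 25 other actin genes higher with BYBX against MII, beside 3875 of all entries. Without a filter 5 genes were lower with BYBX against GV, beside 8336 of the 18497 entries then tested. The cause was not tested in these cases. With a pseudocount of 0.1, a fit without an intensity trend or only the groups compared, each gene kept its direction, and only Arpc3 with BYBX lost its call, in the last. The Cfl1 to Pfn1 ratio with BYBX turned to -0.07 at a pseudocount of 0.1.

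Each library was left out in turn. Without 1 of the MII libraries, 7 to 8 genes were lower in MII, beside 7861 to 7938 of the 9190 to 9209 entries then tested. In those fits 6 were higher with BYBX against MII, beside 5375 to 5577 entries. The count with BYBX against GV depended on single libraries, as given above, and so did calls of Spire1, Arpc2 and Arpc3. Other actin genes higher numbered 0 to 1 in MII and 0 to 1 with BYBX against GV. The change of Fmn2 ranged from -0.37 to 0.34 in MII, from -0.45 to 0.01 with BYBX against MII and from -0.59 to 0.12 against GV, and that of Spire1 with BYBX from 0.00 to 0.15. Ratio differences that changed sign were Fmn2 to Spire1 (-0.14 to 1.18) and Actr3 to Actr2 (-0.03 to 0.06) with BYBX against GV, and Cfl1 to Pfn1 (-0.17 to 0.35) with BYBX against MII. A lone library was assumed to vary like the other groups.

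Groups share replicate numbers but nothing says that a number marks a shared batch. Deviations of same-numbered libraries correlated at 0.487 and 0.282 between GV and MII, at -0.601 and -0.348 between MII and MII + BYBX and at -0.33 between GV and MII + BYBX. With the replicate number as a block, 8 genes were lower in MII, beside 7777 of all 9202 entries, and 6 higher with BYBX against MII, beside 5266. With BYBX against GV 7 genes were lower, beside 5962 of all entries, and Spire1 lost its call (-0.76, limma adjusted p = 0.061). With the numbers crossed, chosen after seeing the data, 5 genes and 42 other actin genes were lower against GV, beside 5856 of all 9202 entries. With 2 or 3 libraries per group and unknown depth, the SE of a log2 change was 0.25 to 0.39 for these genes, and levels near 0, such as Spire2 in MII, have no known counting error.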
